A study of Mus musculus with 4 samples.

Results

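The Cd55 and Sema3c inflammatory fibroblasts of 2 KPC mouse pancreatic tumors are the subject of these results. They are 145 of 7984 cells kept after filtering, and 145 of 1636 cells that passed a fibroblast gate. Each had 500 or more genes, no more than 10% of its UMIs (transcript molecules counted once each) from mitochondrial genes, at least 50 UMIs per 10000 from Col1a1, Col1a2, Col3a1 and Dcn, under 20 per 10000 from Krt8 and Krt18, and no Ptprc. It also had to show 2 or more of Clec3b, Dpt, Col14a1 and Ly6c1, called the inflammatory genes of the rule here. Of Cd55, Sema3c, Dmkn, Creb5, Sfrp4 and Tnfrsf11b, at least 3 had to be detected, and more of these than of Cxcl13, Lrg1, Steap4, Ggt5, Fabp4 and Sned1. The cells are called Cd55-side fibroblasts below. The mirror rule gave 252 Cxcl13-side fibroblasts. Another 607 cells passed the inflammatory step but fell on neither side. The 632 gated cells with 0 or 1 of Clec3b, Dpt, Col14a1 and Ly6c1 are called low-inflammatory fibroblasts. That name rests on these genes alone. The acute-phase gene Saa3, for one, was higher in low-inflammatory than in Cd55-side cells of each library.

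Both tumors came from mice of the genotype KrasLSL-G12D/+; Trp53LSL-R172H/+; Pdx1-Cre on C57BL/6J. All libraries share this genotype, and no tissue without tumor was compared. Cre is driven by the Pdx1 promoter, which is active in pancreatic epithelium, so the mutant alleles are switched on in that lineage and fibroblasts are host stroma. From each tumor, an all live fraction (cells that excluded the dye DAPI) and a sorted CAF fraction (DAPI-negative cells sorted as CD45-, CD31-, EpCAM- and PDPN+) were profiled, which gave 4 libraries. All live 1 and sorted CAF 1 came from the first tumor, and all live 2 and sorted CAF 2 from the second.

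Cancer-associated fibroblasts, or CAFs, are the matrix-producing cells of the stroma that surrounds pancreatic tumor glands. Inflammatory CAFs secrete cytokines, chemokines and complement proteins and lie away from tumor cells, while myofibroblastic CAFs are contractile and are induced by TGF-beta. Fibroblasts of the adventitia, the outer sheath of vessels and ducts, carry Pi16, Dpp4, Cd34 and Ly6a in many organs and make microfibrils and elastic fibres.

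The libraries held between 14972652 and 30950993 UMIs, and 8282 barcodes in all. The Cd55-side fibroblasts numbered 16 in all live 1, 10 in sorted CAF 1, 6 in all live 2 and 113 in sorted CAF 2, so 1 library holds most of them. Their median depth was 9021, 8108, 3860 and 10915 UMIs per cell in the same order. Levels are given as CPM, the UMIs of a gene per 1000000 UMIs in the summed cells. A single UMI is worth 33.8 CPM in the cells of all live 2 and 0.738 in those of sorted CAF 2, and the levels of the first are accordingly coarse. Barcodes that a kept cell of another library also carried were found for 2 of the 145 cells.

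As a share of gated fibroblasts, Cd55-side cells made up 6.61% of 242 cells in all live 1 (95% Clopper-Pearson interval 3.83% to 10.5%) and 3.19% of 313 cells in sorted CAF 1 (1.54% to 5.80%). In tumor 2 they made up 4.62% of 130 cells in all live 2 (1.71% to 9.78%) and 11.9% of 951 cells in sorted CAF 2 (9.89% to 14.1%). The sorted library was the lower of the pair in tumor 1 and the higher in tumor 2, and sorting went with no shared direction. The sorted libraries also differed in makeup. Cells rich in Krt8 and Krt18 and under the collagen cutoff were 1039 of 1402 kept in sorted CAF 1, against 110 of 1222 in sorted CAF 2. The 8 ductal markers summed to 4126 and 3676 CPM in these cells. The part of this makeup in the shares was not tested. These intervals cover counting error only, and 2 libraries against 2 are too few for an exact permutation test to pass the threshold, so no test was made. The shares also moved with the number of side genes required and with depth: in sorted CAF 2 the share was 17.1% when 2 of 6 genes sufficed, 7.68% when 4 were required, and 6.41% after every cell was thinned to 3000 UMIs.

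Among the 145 cells, 54 showed exactly 3 of the 6 Cd55-side genes, 41 showed 4, 36 showed 5 and 14 showed all 6. The cells did not form a separate island in the count of detected genes, as the plot of both sides by library shows. Just outside the rule lay 79 cells with 2 Cd55-side genes and fewer of the other side, and 54 cells with 3 or more that had as many or more of the other side. The level of Cd55 was 308 CPM in the cells with exactly 3 genes, 148 in the first group outside and 189 in the second. For Tnxb, which the rule did not use, these levels were 202, 111 and 242.

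**Figure D1:**
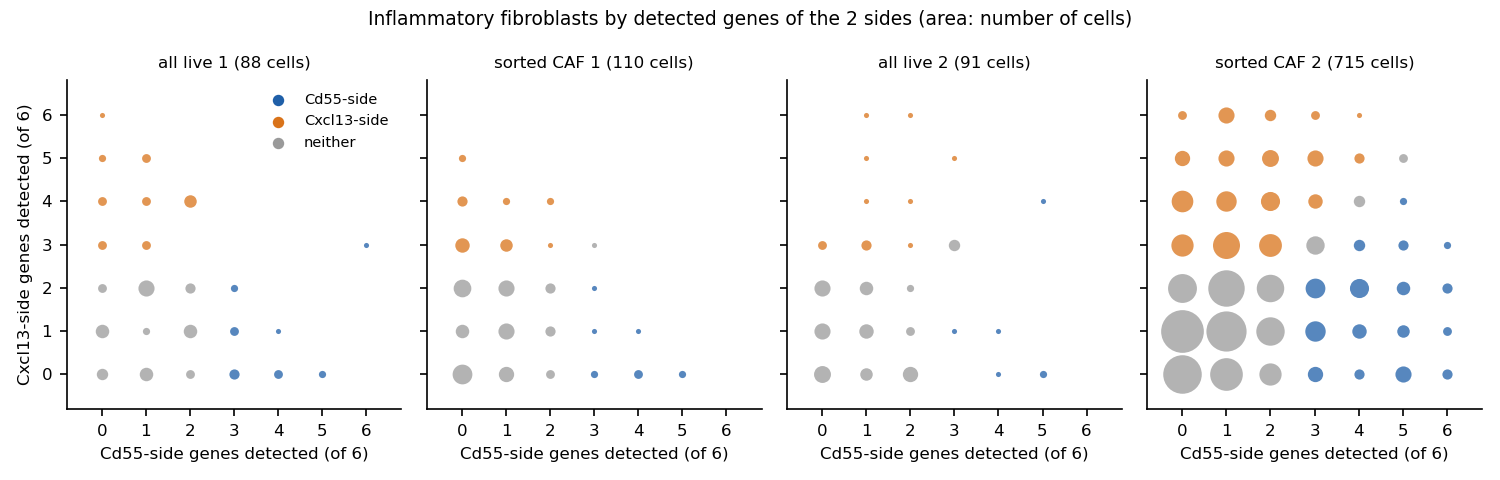
Number of cells (dot area) by how many Cd55-side genes (x axis, of 6) and Cxcl13-side genes (y axis, of 6) were detected, for the inflammatory fibroblasts of each library. Blue marks the 145 Cd55-side cells, orange the 252 Cxcl13-side cells and grey the 607 on neither side; the blue and orange cells adjoin grey cells in each library.

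The genes that chose the cells are given as levels only, since they had to be high or low by construction. Cd55, which encodes a surface protein that restrains complement, stood at 189 CPM in all live 1, 226 in sorted CAF 1, 406 in all live 2 and 563 in sorted CAF 2. Sema3c, a secreted axon and vessel guidance factor, stood at 39.0, 92.6, 203 and 184 in the same order. Both were higher in the 2 libraries of tumor 2. Dmkn, which encodes the secreted protein dermokine, had the opposite order at 763, 1049.8, 372 and 335. Creb5, a transcription factor, lay between 89.1 and 338, the Wnt-binding Sfrp4 between 184 and 372, and Tnfrsf11b, the decoy receptor osteoprotegerin, between 101.5 and 237. Of the genes that count against membership, Cxcl13 had 0 UMIs in both libraries of tumor 1 and 4 in sorted CAF 2, while 39 UMIs in all live 2 came from 1 of its 6 cells.

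Of the 5 markers of the label, Tnxb alone was not used by the rule. It encodes tenascin-X, a matrix glycoprotein of loose connective tissue. In mm10 it lies on the plus strand at chr17:34670535-34719815, Cd55 on the minus strand at chr1:130439027-130462744, and Sema3c on the plus strand at chr5:17574281-17730268. Tnxb stood at 256, 381, 338 and 321 CPM in Cd55-side cells of all live 1, sorted CAF 1, all live 2 and sorted CAF 2. In low-inflammatory fibroblasts it stood at 29.4, 23.8, 17.4 and 8.43, so these classes did not overlap. In Cxcl13-side cells it stood at 174, 131, 230.0 and 153, also below every Cd55-side value. Inflammatory cells on neither side had 98.9, 107, 99.0 and 76.7. Tnxb was thus above each of these 3 classes in every library, although the cells just outside the rule with 3 or more Cd55-side genes had more of it than the Cd55-side cells with exactly 3.

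Markers of other cell types were checked in the Cd55-side cells. The lymphocyte and adipocyte lists summed to at most 10.3 CPM in each library, while the 8 ductal epithelial markers summed to 301, 124, 0 and 39.1 in all live 1, sorted CAF 1, all live 2 and sorted CAF 2, against 95.6, 45.4, 9.20 and 18.3 in Cxcl13-side cells. In those libraries 4, 1, 0 and 5 Cd55-side cells showed 2 or more ductal markers, and the ductal marker Epcam was at 0. The 8 mesothelial markers summed to 902 in all live 1, 535 in sorted CAF 1, 135 in all live 2 and 193 in sorted CAF 2, and 5, 5, 0 and 10 cells showed 2 or more of them. The same list summed to between 125 and 386 in Cxcl13-side cells, and to between 270.3 and 1103 in low-inflammatory cells. The fibroblast receptor gene Pdgfra stood at 50.1, 185, 271 and 165, and Pdpn, whose protein was the sort marker, at 334, 216, 474 and 263.

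The first comparison asks what else sets the Cd55-side cells apart from the Cxcl13-side cells, the other kind of inflammatory fibroblast. Counts were summed per tumor and class, 26 and 119 Cd55-side cells against 49 and 203 Cxcl13-side cells in tumors 1 and 2, and n is 2 tumors. The genes of the rule were left out. Cells were picked by RNA counted in the same cells, so the comparison shows which further genes go with the rule genes. With the tumors' sums taken as independent samples, edgeR's quasi-likelihood test with Benjamini-Hochberg adjustment called 0 of 7578 genes at 0.05 (for 324 the unadjusted p was under 0.05, while DESeq2 gave 31 calls). Both sums of a tumor come from the same animal, and with the tumor as a replicate block edgeR called 86 genes higher (1.13% of those tested) and 99 lower (1.31%), 2.44% in all. The fit without the block was set as the main test and the blocked fit as its alternative. Below, called refers to the blocked fit, and the log2 fold change, standard error (SE) and adjusted p of a gene are from that fit. With 2 sums per class the blocked fit leaves few residual degrees of freedom, and even small adjusted p values rest on 2 tumors. Medians of a list, and counts above 0, are from the fit without the block.

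Adventitial fibroblast genes were higher in the Cd55-side cells. Of 22 listed, 19 were tested, all 19 of these lay above 0 (49.7% of all genes did) and 12 were called, all higher. The lists were chosen with earlier results of these data known, and this one holds the label marker Tnxb. Its counts are therefore not independent of these data. The median log2 fold change of the list was 1.3, against -0.0022 over all genes tested. Summed over the list, the level was 9126, 12341, 7848 and 8365 CPM in Cd55-side cells of all live 1, sorted CAF 1, all live 2 and sorted CAF 2, and 4137, 4214, 4316 and 3612 in Cxcl13-side cells, with no overlap.

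Pi16, which encodes a secreted peptidase inhibitor, stood at 1715, 1472, 677 and 1214 CPM in Cd55-side cells in that order of libraries, and at 275, 471, 386 and 307 in Cxcl13-side cells. The classes did not overlap, and the log2 fold change was 2.01 (SE 0.20, edgeR adjusted p = 0.000584). Cd34, a sialomucin of stem cells and adventitial fibroblasts, stood at 323, 546, 237 and 252 against 112, 114, 82.8 and 61.1 (log2 fold change 1.91, SE 0.24, edgeR adjusted p = 0.00204). Its lowest Cd55-side library was above its highest Cxcl13-side library. Igfbp6, which binds insulin-like growth factor 2, had a log2 fold change of 2.12 (SE 0.20). Its levels of 2378, 2614, 474 and 770.2 were higher in tumor 1 than in tumor 2, as were the Cxcl13-side levels of 618, 579, 230.0 and 159. Ackr3, the scavenging receptor for CXCL12, stood at 234, 432, 372 and 266 against 112, 108, 110.4 and 79.4 (log2 fold change 1.6, SE 0.24). Anxa3 (1.80), the receptor tyrosine kinase gene Axl (1.29), the hyaluronan precursor enzyme gene Ugdh (1.22), Cd248 (1.07), Uchl1 (2.29), Cmah (1.58), Limch1 (1.89) and the peptidase gene Dpp4 (1.87) completed the called genes of this list. Limch1 had 1 UMI in the Cd55-side cells of each library of tumor 1. Tnxb missed the threshold with a log2 fold change of 0.99 (SE 0.23, edgeR adjusted p = 0.0577), and so did Ly6a, the gene of the surface protein Sca-1, with 0.63 (SE 0.17, edgeR adjusted p = 0.101).

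Elastic fibre and microfibril genes were the second group on the higher side. Of 21 tested, 5 were called higher and none lower, with a list median of 0.47. Mfap5, a microfibril glycoprotein gene, stood at 5908, 4663, 3011 and 4044 CPM against 978, 1346, 2365 and 1436, and the classes did not overlap (log2 fold change 1.81, SE 0.20, edgeR adjusted p = 0.000885). Fbn1, which encodes fibrillin-1, stood at 1169, 1760.0, 2233 and 2445 against 320.4, 358, 1150.2 and 936 (log2 fold change 1.65, SE 0.21). Each tumor's Cd55-side libraries were above its Cxcl13-side libraries. Eln, the gene of elastin, stood at 2021, 391, 1353 and 1859 against 337, 426, 745 and 411 (log2 fold change 2.00, SE 0.19). Sorted CAF 1, with 10 Cd55-side cells, was the exception, where Eln was slightly below the Cxcl13-side value. The symbol Ltbp4, carried by more than 1 gene ID in the files, was among the 5 and is uncertain. Mfap4 was called too (log2 fold change 1.28, SE 0.22), although its Cd55-side level exceeded the Cxcl13-side level in 2 of the 4 libraries only.

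**Figure D2:**
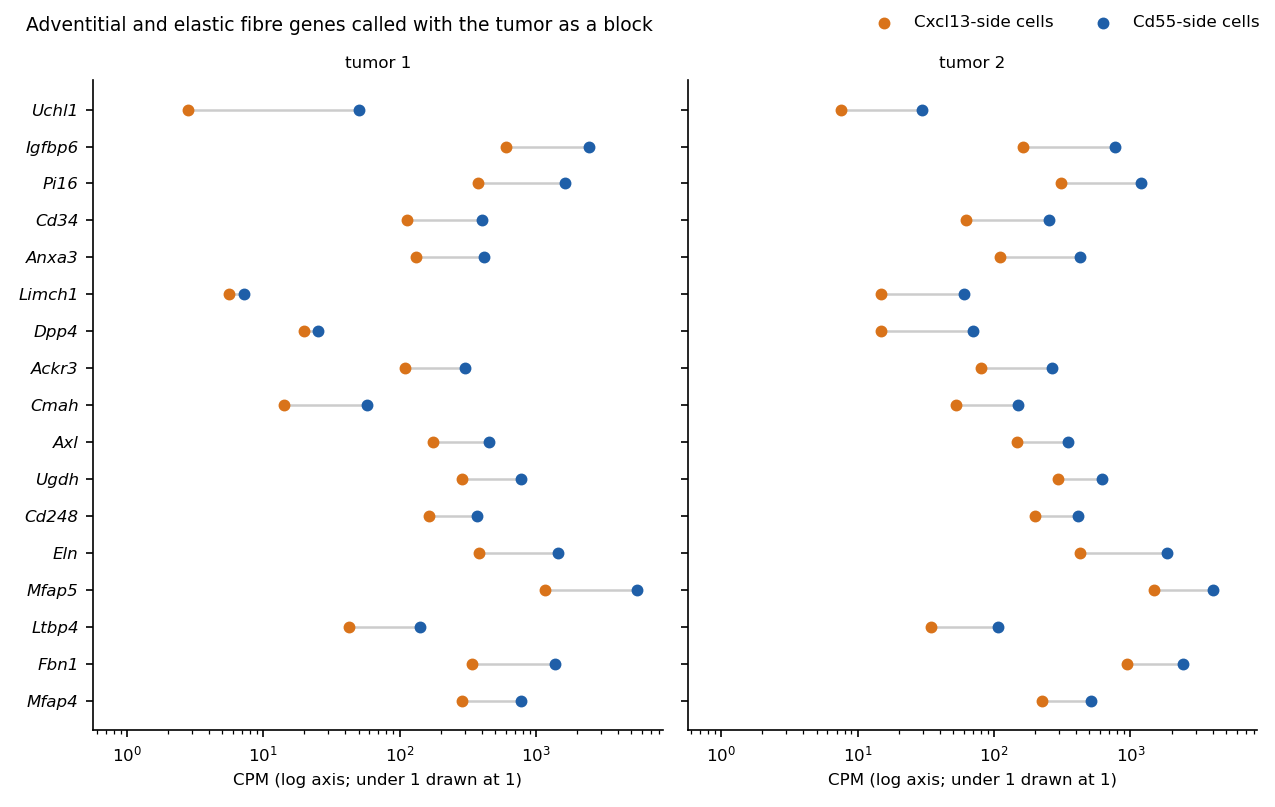
Level in CPM (log axis) of the adventitial and elastic fibre genes called with the tumor as a block, in Cd55-side (blue) and Cxcl13-side (orange) cells summed per tumor, 1 panel per tumor. Blue lies to the right of orange for each gene drawn in both tumors, by the smallest distance for Limch1 and Dpp4 in tumor 1.

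Genes of chemokines, of inflammatory signalling, of complement and of lipid handling lay mostly on the lower side. The clearest was Cxcl12, the ligand of CXCR4 and ACKR3, with a log2 fold change of -3.40 (SE 0.32, edgeR adjusted p = 0.000584). It stood at 50.1, 144, 1184 and 178 CPM in Cd55-side cells and at 1923, 1261, 1067 and 1386 in Cxcl13-side cells. The 6 cells of all live 2 thus went the other way, with 35 UMIs in all, and the remaining 3 libraries lay far below every Cxcl13-side library. Cxcl5, a neutrophil-attracting chemokine, had 0 UMIs in 3 libraries and 2.95 CPM in sorted CAF 2, against 5.62 to 64.5 in Cxcl13-side cells. Ccl11, the eosinophil attractant eotaxin, had a log2 fold change of -1.10 (SE 0.24). These 3 were the only called genes among 18 tested chemokines and cytokines, whose list median was -0.44. The list summed to 3669, 5445, 4364 and 3023 CPM in Cd55-side cells, in the library order used above. In Cxcl13-side cells it summed to 5532, 4083, 6101 and 5874, so sorted CAF 1 went the other way. Il6 was not called at -0.72 (SE 0.23, edgeR adjusted p = 0.192), nor was Cxcl1 at 0.10 (SE 0.24, edgeR adjusted p = 0.986).

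Of 25 tested genes of the IL1, NF-kB and JAK-STAT list, 6 were called and all were lower, with a list median of -0.43. Immediate early and dissociation genes lay on the same side: 2 of 17 tested were above 0 and the list median was -0.31, with 0 called. That list summed to 10167, 13442, 11231 and 10277 CPM in Cd55-side cells and to 17680, 15992, 11806 and 11320 in Cxcl13-side cells, lower in each library, and its part in the result was not tested. Saa3, an acute-phase protein gene, stood at 707, 0, 33.8 and 69.3 CPM against 2867, 1846, 1399 and 587 (log2 fold change -2.79, SE 0.24). Its highest Cd55-side library, all live 1, was above the lowest Cxcl13-side library but below that of its own tumor. Il1r1, the receptor for IL1, stood at 66.8, 82.3, 169 and 140.2 against 141, 136, 267 and 374 (log2 fold change -1.26, SE 0.26, edgeR adjusted p = 0.0296), lower in each library. Lifr (-2.33), the receptor subunit for LIF, the STAT3 feedback inhibitor Socs3 (-1.15), the transcription factor Cebpb (-1.17) and the iron-siderophore binder Lcn2 (-2.40) were the others. Haptoglobin, encoded by the acute-phase gene Hp, was in no list and stood at 111, 103, 406 and 252 against 2164, 2300.0, 1399 and 1683, without overlap (log2 fold change -3.43, SE 0.34). Inflammatory cells on neither side had Hp at 594, 914, 412 and 301, and low-inflammatory fibroblasts at 343, 366, 423 and 430. In tumor 2 both classes lay nearer to the Cd55-side than to the Cxcl13-side values. Hsd11b1, whose enzyme regenerates active glucocorticoid, had a log2 fold change of -2.00 (SE 0.25).

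Complement genes were lower for 4 of 12 tested and higher for none, with a list median of -0.70. C3, the central component, stood at 1369.7, 793, 2029.6 and 1842 CPM against 3654, 4083, 3635 and 2746, without overlap (log2 fold change -1.17, SE 0.24, edgeR adjusted p = 0.0274). C2 (-1.45), Clu (-1.50) and the C1 inhibitor gene Serping1 (-0.85) were the others called. Cd55 itself restrains C3 convertases, and it is a gene of the rule.

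In the retinoid and lipid list 6 of 13 tested genes were called, all lower, with a list median of -1.54. Apoe, a lipid carrier, stood at 635, 422, 169 and 283 CPM against 8787, 8746, 1012 and 1362 (log2 fold change -3.12, SE 0.33). Lpl, lipoprotein lipase, stood at 94.7, 41.2, 101 and 280.3 against 512, 363, 1058 and 855 (log2 fold change -2.00, SE 0.27), and Aldh1a2, which makes retinoic acid, had -1.59 (SE 0.26). Each of the 3 was lower in every library. Fabp5, Rbp4 and Cd36 were also called. Adipocyte markers moved with this group: all 6 were at 0 in the Cd55-side cells of 3 libraries and summed to 5.2 in sorted CAF 2, against 354, 34.1, 0 and 418 in Cxcl13-side cells, where Car3 and Adipoq were called. Their part in the result was not tested. Apoe is also on the macrophage list, which summed to 785, 453, 271 and 308 in Cd55-side cells and to 8972, 8768, 1343 and 1385 in Cxcl13-side cells, most of it Apoe. Inflammatory cells on neither side had 4200, 4660, 1331 and 366 for that list, and low-inflammatory fibroblasts 2773, 2665, 623 and 429. In sorted CAF 2 both thus lay near the Cd55-side sum. Without cells that carried mesothelial or pericyte markers the adjusted p (edgeR) of Apoe was 0.00688.

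**Figure D3:**
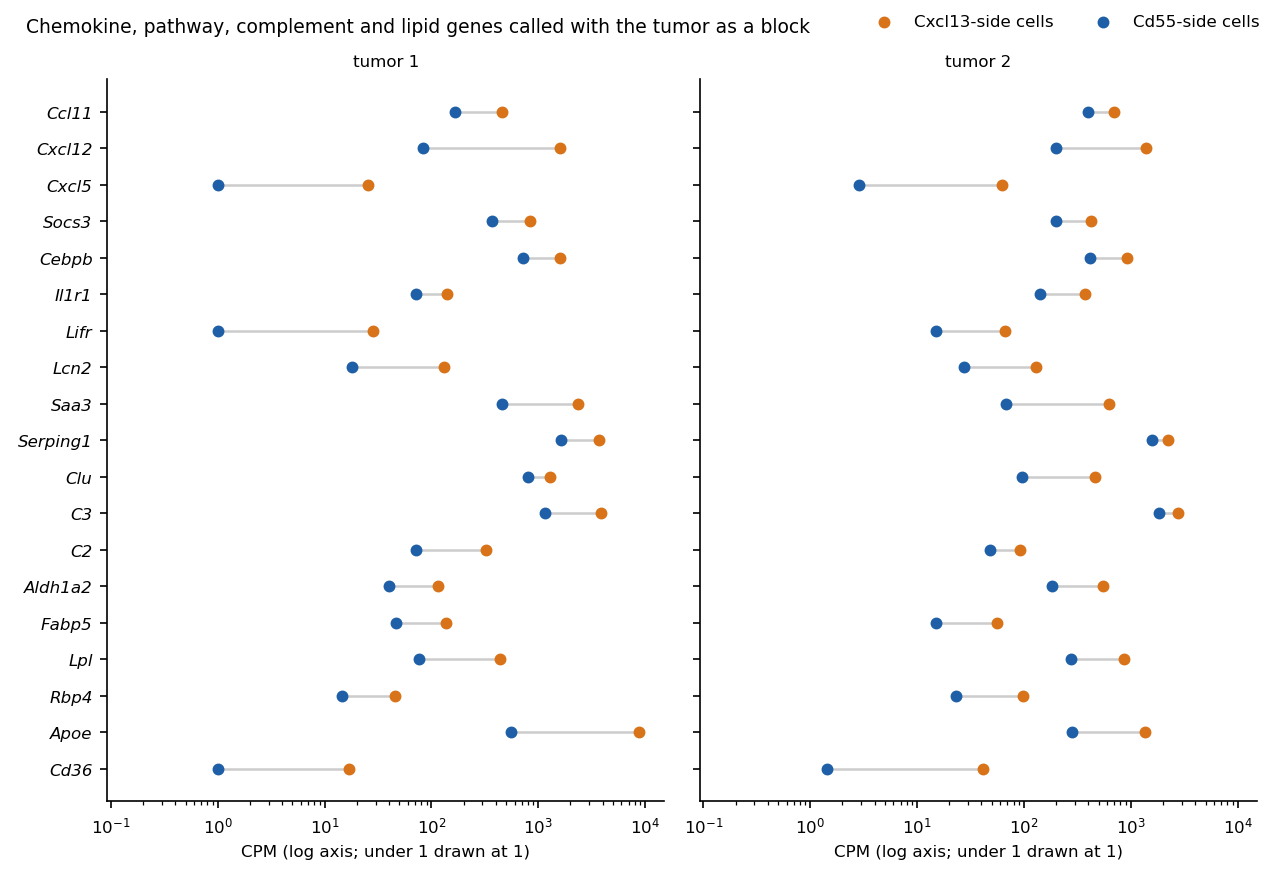
Level in CPM (log axis, values under 1 drawn at 1) of the chemokine, pathway, complement, and retinoid and lipid genes called with the tumor as a block, in Cd55-side (blue) and Cxcl13-side (orange) cells summed per tumor. Orange lies to the right of blue for each gene drawn in both tumors.

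Several matrix and signalling genes outside these groups were higher in Cd55-side cells. Aspn, which encodes the small leucine-rich protein asporin, stood at 161, 278, 304 and 375 CPM against 5.62, 5.68, 0 and 31.6 (log2 fold change 3.82, SE 0.32, edgeR adjusted p = 0.000584). Of 19 tested myofibroblast genes 3 were called, all higher: Postn (log2 fold change 1.77, SE 0.23), Cthrc1 (2.64, SE 0.44) and Col8a1 (2.57, SE 0.58), which encode secreted matrix proteins. The contractile genes Acta2 (0.16, SE 0.37) and Tagln (0.25, SE 0.27) were not called. Fstl1 (1.45, SE 0.20) and Ctgf (1.94, SE 0.35) were called in the TGF-beta and BMP list. Wnt2, a Wnt ligand, had a log2 fold change of 2.86 (SE 0.41), and Sfrp1 and Wnt4 were called lower at -1.13 and -1.11. Igfbp5 was at 345, 288, 0 and 73.0 against 11.2, 5.68, 0 and 8.74 (log2 fold change 3.68, SE 0.40). Its high level was not particular to Cd55-side cells. Low-inflammatory fibroblasts had 172, 156, 8.72 and 155, above the Cd55-side values in both libraries of tumor 2. Inflammatory cells on neither side had 312, 11.9, 25.3 and 19.0.

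Ranked by p without the block, the 10 first genes on the higher side were Tppp3, Krtdap, Scgb1a1, Igfbp5, Aspn, Cd200, Tmem158, Wnt2, Pi16 and Fhl1, and on the lower side Car3, Gc, Rgcc, Cxcl12, Hp, Lcn2, Arxes1, Hsd11b1, Cxcl5 and Arxes2. None passed without the block, where the adjusted p lay at 0.086 for Car3 and at 0.163 or above for the others. Tppp3, a microtubule-binding protein gene, stood at 345, 803, 67.7 and 308 CPM against 78.7, 11.4, 27.6 and 52.0. Msln, a mesothelial marker, and Krt19, which is on the mesothelial and the ductal list, were called higher as well, Msln at 184, 226, 0 and 28.8 against 11.2, 0, 0 and 2.08. Without cells that showed 2 or more mesothelial or pericyte markers, the blocked fit called 44 genes higher (0.676%) and 35 lower (0.538%) of 6505, 1.21% in all, and 72 of these 79 were among the 185 called with all cells. In that fit the adventitial list had 5 called genes instead of 12, namely Pi16, Cd34, Igfbp6, Ackr3 and Axl. The elastic fibre list had 3 instead of 5, the IL1 list 2 instead of 6, the complement list 1 instead of 4, and the lipid list 3 instead of 6. C3, Il1r1, Ccl11, Dpp4, Mfap4 and Col8a1 were among the genes no longer called. The setting removed 7 of 16 Cd55-side cells in all live 1 and 6 of 10 in sorted CAF 1. It removed 0 of 6 in all live 2 and 20 of 113 in sorted CAF 2. The Cd55-side sum of tumor 1 thus fell under the minimum of 20 cells. Lost calls from fewer cells and from the removed kind of cell cannot be told apart here. Without sorted CAF 2 the blocked fit called 20 genes higher and 35 lower of 3049 tested.

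**Figure D4:**
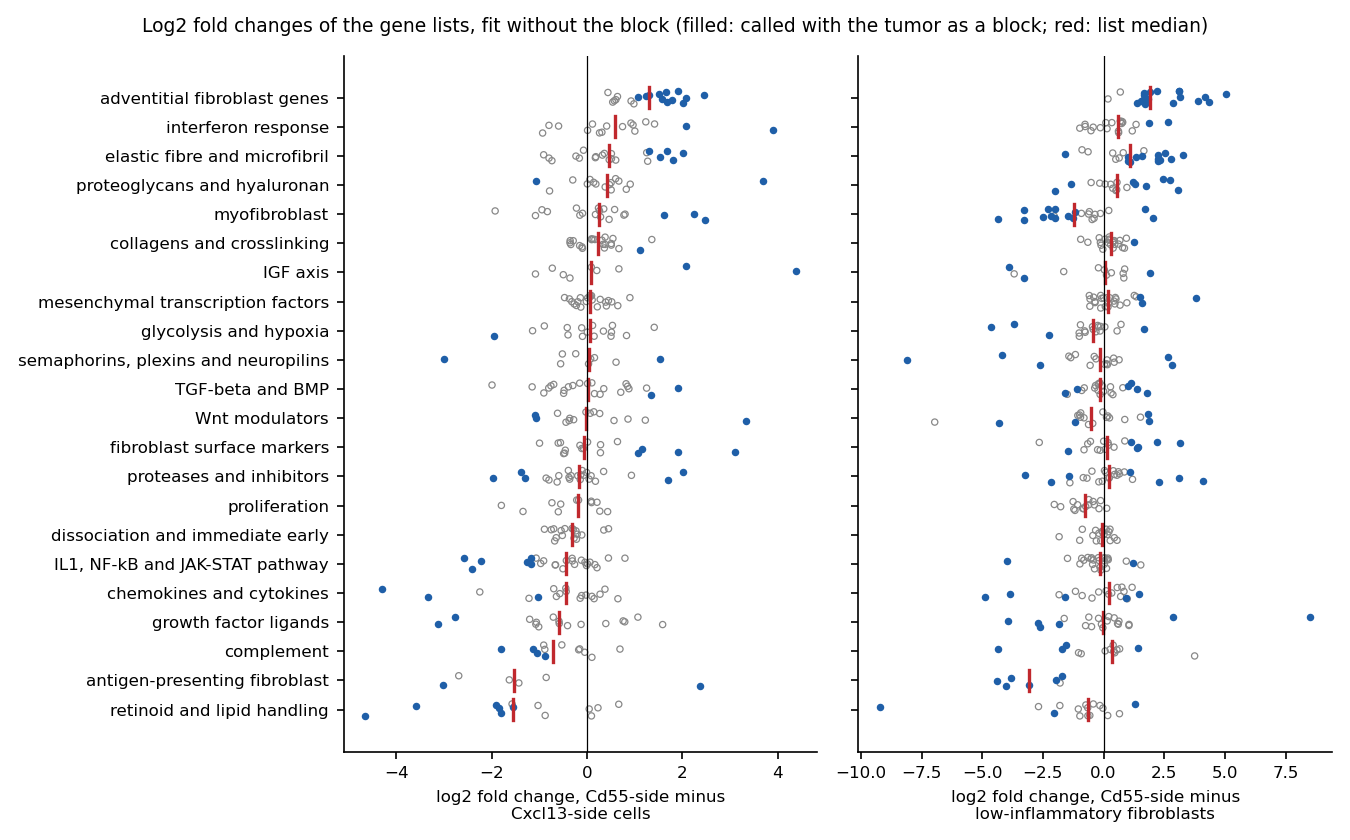
Log2 fold change of each tested gene of the 22 lists, Cd55-side minus Cxcl13-side cells (left) and minus low-inflammatory fibroblasts (right). Filled dots are genes called with the tumor as a block and red bars are list medians; fold changes are from the fit without the block, and those of genes at 0 in a class depend on the prior count. On the left the adventitial list has the highest median (1.3) and the retinoid and lipid list the lowest (-1.54).

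How the same genes varied along the count of Cd55-side genes is given as a description, since that count is the rule. All inflammatory fibroblasts were summed by tumor and by the number of Cd55-side genes detected. The adventitial list went from 4123 CPM in cells with 0 such genes through 5702, 6396 and 8043 with 1, 2 and 3, to 12312 in cells with 4 to 6 in tumor 1. In tumor 2 the series was 2041, 2944, 3687, 5328 and 9671. The median depth went with it from 6212 to 8432 UMIs per cell in tumor 1 and from 9357 to 11535 in tumor 2, and its part was not tested. Cxcl12 did not follow a common course: it went from 972 through 489.9, 427 and 79.6 to 79.9 in tumor 1, but from 365 through 527, 667 and 843 to 405 in tumor 2. Hp went from 1586 to 145 in tumor 1 and only from 710.2 to 672 in tumor 2. These sums also hold cells of the Cxcl13 side and of neither side, and the Cd55-side sum of tumor 2 stood at 199 for Cxcl12 and 256 for Hp.

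**Figure D5:**
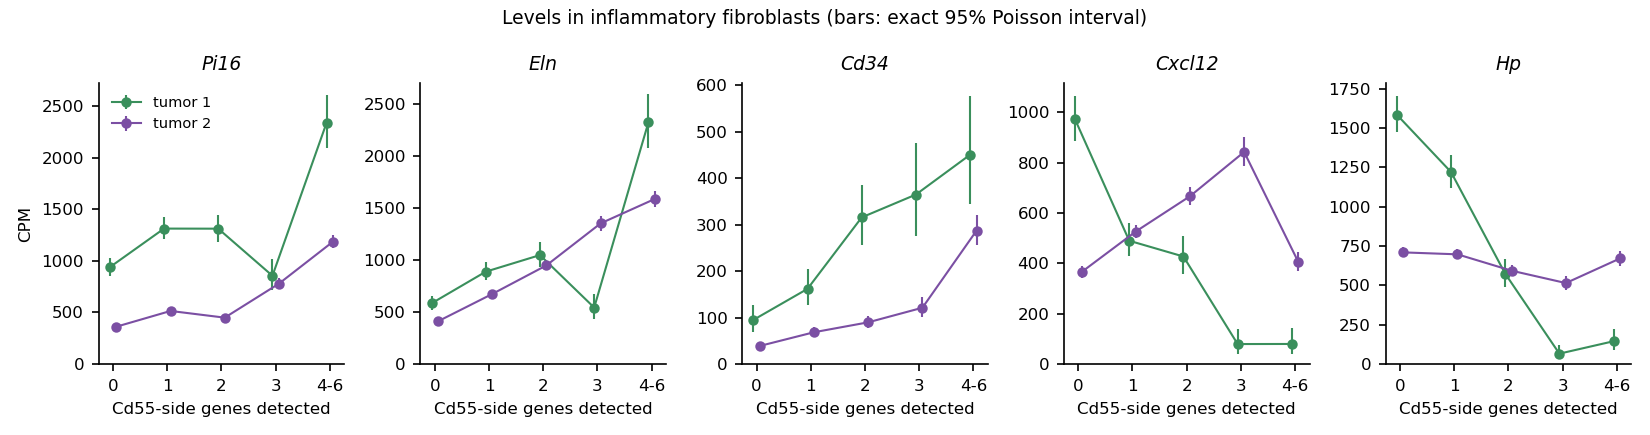
Level in CPM of 5 genes in all inflammatory fibroblasts, by the number of Cd55-side genes detected (x axis) and by tumor, with exact 95% Poisson intervals that cover counting error. Cd34 climbs in both tumors, and Cxcl12 falls in tumor 1 but peaks at 3 genes (843) in tumor 2. Pi16 and Eln are highest at 4 to 6 genes in both tumors, a group of 13 cells in tumor 1. At 3 genes in tumor 1 they stand at 855 and 544, below the 939 and 584 at 0 genes.

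The second comparison sets the Cd55-side cells against low-inflammatory fibroblasts, the gated cells with at most 1 of the 4 inflammatory genes of the rule (357 and 275 cells in tumors 1 and 2). It shows where they stand relative to the contractile and other stroma of the same tumors. Without a block, edgeR called 1 of 10117 genes higher (0.00988%) and 0 lower, with 709 at an unadjusted p under 0.05. DESeq2 called 96. With the tumor as a replicate block, edgeR called 263 higher (2.6%) and 232 lower (2.29%), 4.89% in all. The gene called in both fits was Lurap1l, at 72.4, 165, 67.7 and 85.6 CPM against 1.2, 2.84, 4.36 and 3.3. Of the low-inflammatory cells, 89 of 154, 106 of 203, 7 of 39 and 41 of 236 showed 2 or more mesothelial markers, against 5 of 16, 5 of 10, 0 of 6 and 10 of 113 Cd55-side cells, so the shares were close in sorted CAF 1.

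The adventitial list was again higher, with 17 of 19 tested genes called higher, none lower and a median log2 fold change of 1.91 against -0.017 over all genes. After cells with mesothelial or pericyte markers were left out, 18 were called, while over all genes the fit called 3.51% higher and 2.62% lower, 6.13% in all. Ackr3 had the largest value of the list, 5.15 (SE 0.35, edgeR adjusted p = 1.2e-09), with 8.40, 16.5, 0 and 5.50 CPM in low-inflammatory cells. Tnxb followed at 4.33 (SE 0.36, edgeR adjusted p = 1.96e-08), then Cmah at 4.28, Pcolce2, an enhancer of collagen maturation, at 3.89, and the ferritin receptor gene Scara5 at 3.37. Ly6a stood at 1442, 2316, 2977 and 2105 against 265, 314, 201 and 172 (log2 fold change 3.17, SE 0.35), without overlap. The 2 comparisons share the Cd55-side sums. Side by side, Pi16 had 2.01 against Cxcl13-side cells and 3.10 against low-inflammatory cells, Ly6a 0.63 and 3.17, Pcolce2 0.61 and 3.89, and Scara5 0.48 and 3.37.

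Of 21 elastic fibre and microfibril genes 13 were called higher and 1, Fbn2, lower, with a median of 1.10. Eln had a log2 fold change of 3.29 (SE 0.32), at 152, 124, 340.1 and 214 CPM in low-inflammatory cells, below all 4 Cd55-side values. Fbn1 (2.61, SE 0.32), Mfap4 (2.33, SE 0.31), Mfap5 (2.27, SE 0.35), Efemp1 (2.09, SE 0.34) and Fbln2 (1.63, SE 0.31) were among the others. Fbn2, fibrillin-2, stood at 11.1, 10.3, 0 and 44.3 against 20.4, 35.8, 196 and 175 (log2 fold change -1.81, SE 0.34). Among proteoglycan genes 6 of 17 were called higher, among them Lum (1.59, SE 0.33), Ogn (2.54, SE 0.46), Gpc6 (2.39, SE 0.30) and Aspn (3.0, SE 0.33), and 2 were lower.

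The myofibroblast list divided. Of 22 tested genes 11 were called lower and 2 higher, and the median was -1.22. Acta2, smooth muscle actin, stood at 72.4, 51.5, 0 and 418 CPM against 512, 238, 2054 and 1739.6 (log2 fold change -2.19, SE 0.32, edgeR adjusted p = 7.28e-05). It was lower in each library pair, although the value of sorted CAF 2 was above the low-inflammatory value of sorted CAF 1. Tagln (-2.34, SE 0.34), Inhba (-4.60, SE 0.49), Igfbp3 (-3.14, SE 0.32), the tenascin gene Tnc (-2.71, SE 0.40) and Timp3 (-2.13, SE 0.32) were also lower. The called genes on the higher side were Postn, at 651, 1019, 1860.5 and 1641 against 93.6, 166, 519 and 501 (log2 fold change 2.20, SE 0.32), and Cthrc1 (1.80, SE 0.32). Without cells carrying mesothelial or pericyte markers Cthrc1 lost its call (edgeR adjusted p = 0.295). Pericyte markers moved with this list: they summed to between 33.8 and 124 in Cd55-side cells and between 210.0 and 649.6 in low-inflammatory cells. Without cells carrying mesothelial or pericyte markers 15 of 21 genes were called lower. No fit left out the cells with pericyte markers alone.

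Chemokines and cytokines divided too, with 2 of 19 called higher and 3 lower. Ccl7, a monocyte attractant, stood at 640.3, 1523, 271 and 476 CPM against 433, 261, 161 and 181 (log2 fold change 1.5, SE 0.29, edgeR adjusted p = 0.00132). It was higher in each library pair, but without cells carrying mesothelial or pericyte markers it was not called (edgeR adjusted p = 0.0929). Cxcl1, a neutrophil attractant, was called at 1.11 (SE 0.32, edgeR adjusted p = 0.0402) but was lower in all live 1. Cxcl14 stood at 134, 10.3, 0 and 45.7 against 144, 162, 1901 and 1759, a gap that lay mainly in tumor 2 (log2 fold change -3.25, SE 0.65). Il6 was not called at 0.45 (SE 0.31, edgeR adjusted p = 0.683), nor was Il33 at 0.83 (SE 0.28, edgeR adjusted p = 0.102). Saa3 was lower here as well, at 6702, 4936, 7687 and 1868 in low-inflammatory cells (log2 fold change -4.29, SE 0.39).

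Class II antigen presentation genes were lower in the Cd55-side cells. Of 7 tested genes of the antigen-presenting list 6 were called lower, with a median of -3.08. They were the class II genes Cd74, H2-Aa, H2-Ab1 and H2-Eb1, and Slpi and Nkain4, which are not class II genes. Cd74, the invariant chain, stood at 61.2, 10.3, 0 and 3.69 CPM against 399.6, 368, 91.6 and 78.0 (log2 fold change -3.61, SE 0.37, edgeR adjusted p = 3.96e-07). Each Cd55-side library was below all low-inflammatory libraries. Mesothelial markers, summed to at most 1103 in the low-inflammatory cells, moved with this list. Without cells that carried mesothelial or pericyte markers 4 of 6 tested genes were called lower.

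Among 26 tested mesenchymal transcription factors 3 were called, all higher. Ebf2 stood at 33.4, 72.0, 33.8 and 76.7 CPM against 3.60, 2.84, 8.72 and 6.23 (log2 fold change 3.75, SE 0.41, edgeR adjusted p = 1.19e-06), without overlap. Ebf1 (1.61, SE 0.29) and Tcf21 (1.55, SE 0.37), a factor of mesenchymal development, were the others, and Tcf21 was not called without cells carrying mesothelial or pericyte markers (edgeR adjusted p = 0.14). None of the 22 tested factors was called against Cxcl13-side cells. Of 24 tested proteases and inhibitors 4 were called higher and 3 lower. The protease gene Htra3 had a log2 fold change of 4.05 (SE 0.33) and the aggrecanase gene Adamts5 2.22 (SE 0.29), while the inhibitor genes Timp1 (-1.44, SE 0.32) and Serpine2 (-3.36, SE 0.39) were lower.

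The genes that led this comparison by p without the block were Lurap1l, Ackr3, Lmo2, Scgb1a1, Pi16, Tppp3, Lrrc17, Tnxb, Tmem100 and Eln on the higher side and Cxcl5, Cdkn2a, Cadm4, Inhba, Slc7a2, Sept4, Hsd11b1, Serpinb2, Abcb1b and Mdk on the lower. All but Lurap1l had an adjusted p of 0.0528 or more without the block, and all were called with it. Cdkn2a, a locus of cell cycle inhibitors, stood at 0, 0, 0 and 2.95 CPM against 50.4, 70.4, 179 and 73.3. Serpinb2 had no UMI among the 1661892 of the Cd55-side cells and stood at 353, 424, 118 and 55.7 in low-inflammatory cells. Without sorted CAF 2 only 13 genes were called higher and 6 lower with the block, of 3780 tested.

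Sorted and all live Cd55-side cells were not tested against each other, since 3 of the 4 sums (16, 10 and 6 cells) were under the minimum of 20 set for this comparison, and a fit on smaller sums was not run. The levels above stand side by side by library in its place. Between the tumors, with 1 tumor each and no test, 8 of 321 list genes differed by 4-fold or more the same way in both fractions. Sned1, Sfrp2, Limch1, Bst2, Ogn, Ifi27l2a and Col14a1 were higher in tumor 2 and Clu in tumor 1. Some of these rest on few UMIs. In all live 1 and sorted CAF 1, Sned1 had 1 and 0, Limch1 1 and 1, and Bst2 4 and 2. Clu had 1 in all live 2. The 0 of Sned1 was taken as 3 UMIs for its fold. Sfrp2, a secreted Wnt modulator, measured 156 CPM in the all live and 185 in the sorted fraction of tumor 1, and 2029.6 and 827 in those of tumor 2. The interferon-induced Ifi27l2a stood at 434 and 298, and at 1894 and 2331. Sned1 and Col14a1 are genes of the rule.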

How the data were processed

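The deposited UMI counts, whole numbers for each gene in each barcode and not normalized, were made by the authors with Cell Ranger 2.0.0, CASAVA 1.4 and mm10, per the submitters' processing notes. Deposited gene and barcode tables hold other text, with no measurement. The sources used here do not say how barcodes were chosen or which reads were technical replicates, so each library was taken as 1 sample. The cells, gene lists and named genes were chosen with earlier results of these data known. The cell filters open the results. Scrublet in scanpy 1.11.5 marked 27 cells by itself (0.338%) and was taken as not having worked; no cell was removed, and leaving out the 163 highest scores (2 of them Cd55-side) was an alternative.

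Counts were summed per tumor and class (at least 20 cells) and tested two-sided with edgeR 4.0.16 (quasi-likelihood, TMM, filterByExpr) in R 4.3.3, without the 23 rule genes, with Benjamini-Hochberg adjustment at 0.05. Sample titles give a fraction and a biological replicate number. That both fractions of a number came from 1 of the 2 tumors was read from the series design and the sorting protocol. The class sums of a tumor were thus taken to come from 1 animal, and the fit with the tumor as a replicate block is printed throughout. Their deviations from the class means correlated at 0.463 and 0.368 in the 2 comparisons, a value that 2 tumors share by construction. An SE was obtained by dividing a log2 fold change by the root of its F statistic. On data simulated with no tumor effect, the fit without the block recovered most genes changed by 4-fold. The blocked fit was not simulated, so this gives no measure of its calls. The named genes are those of the rule, those of the lists, and, among genes at 20 CPM or more that moved the same way in both tumors, the 15 of largest change in each direction that passed, or the 10 of smallest p where under 5 did. Alternatives were the replicate block, DESeq2 1.42.0 and its size factors, no filter, sums per library, other side-gene minimums, thinning, and leaving out libraries. The lists were adventitial, chemokine, IL1 to JAK-STAT, complement, semaphorin, elastic fibre, myofibroblast, collagen, proteoglycan, Wnt, IGF, TGF-beta, growth factor, surface marker, protease, transcription factor, retinoid and lipid, glycolysis, interferon, immediate early, proliferation and antigen-presenting genes.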

Additional observations from a re-analysis of the deposited data

How the results depend on the processing

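The counts of called genes depended on the block. Against Cxcl13-side cells, 0 genes were called in either direction without it; the replicate block gave 86 higher and 99 lower, DESeq2 16 and 15, no filter on low counts 54 and 87, and sums per library with the library as a block 74 and 68 of 2743. Without cells with mesothelial or pericyte markers 0 were higher and 1 lower without the block, and 44 and 35 with it. Leaving out 1 library gave 0 higher and 0 to 1 lower without the block. With it, 67 and 77 were called without all live 1, 109 and 110 without sorted CAF 1, 99 and 109 without all live 2, and 20 and 35 without sorted CAF 2. Against low-inflammatory fibroblasts, 1 higher and 0 lower without the block became 263 and 232 with it, 2 and 0 with DESeq2's size factors, 70 and 26 with DESeq2, 175 and 195 with no filter, and 220 and 204 with sums per library. It was 0 higher without high doublet scores or with 2 of 6 side genes, 31 and 8 with 4 of 6, and 70 and 81 after thinning. Without mesothelial or pericyte cells it was 46 and 23, or 290 and 216 with the block. Leaving out all live 1, sorted CAF 1, all live 2 and sorted CAF 2 in turn gave 24, 9, 2 and 3 higher and 8, 3, 0 and 1 lower without the block, and 243, 182, 302 and 13 higher and 252, 147, 265 and 6 lower with it. The cause of these shifts was not tested. Sums per library needed at least 10 cells in each class. That left out all live 2, with 6 Cd55-side cells, and counted the libraries of tumor 1 as separate blocks although they share an animal.

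Shares in all live 1 were 10.7%, 2.89% and 1.2% with 2 of 6 genes, 4 of 6 genes and thinning, and 17.1%, 7.68% and 6.41% in sorted CAF 2; in all live 2 the share was 13.8% with 2 of 6. Named genes that changed direction were H2-Ab1 against Cxcl13-side cells (0.13) and Il11 against low-inflammatory cells (0.14), both with 2 of 6 genes, and Sema3g without tumor 2 (-0.38, and 3.98 without tumor 1). Measured against the fit without the block, 457 single-gene values of the first comparison and 963 of the second were past the threshold only under an alternative; most others stayed uncalled, which in a design of this size says nothing about stability. Settings whose sums per tumor fell under 20 cells were run with 5 or more. These, the blocked fits without a library and the removal of marker-positive cells were chosen after seeing the data. No test of sorted against all live cells was run. Depth limits all live 2, where 1 UMI of the 6 Cd55-side cells is worth 33.8 CPM.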

Other observations

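Other lists of the Cd55-side fibroblasts are given here as values, with the tumor as a block. Sema3c is a rule gene, but other semaphorins were measured. Sema3d, a guidance factor of the same class, was called higher against both other classes, with log2 fold changes of 1.70 (SE 0.35, edgeR adjusted p = 0.0275) and 2.60 (SE 0.45, edgeR adjusted p = 0.000517). Its level was 16.7, 10.3, 67.7 and 66.4 CPM in all live 1, sorted CAF 1, all live 2 and sorted CAF 2. Sema5a was called lower against both, at -2.95 (SE 0.49) and -2.20 (SE 0.53). Both comparisons use the same Cd55-side sums. Without cells that carried mesothelial or pericyte markers, Sema5a was not called (edgeR adjusted p = 0.0569 and 0.0638), and Sema3d was tested and called only against low-inflammatory cells (edgeR adjusted p = 1.95e-05). Sema3a, at 5.57, 0, 0 and 0.738 against 38.4, 38.0, 17.4 and 14.3 in low-inflammatory cells, was called lower there (-3.78, SE 0.72) and was too low to be tested without those cells.

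Growth factor ligands were mixed. Ptn, which encodes pleiotrophin, had 0 UMIs in 3 libraries and 13.3 CPM in sorted CAF 2, and was called lower against Cxcl13-side cells (-2.83, SE 0.45) and low-inflammatory cells (-4.27, SE 0.41). Kitl was called lower against Cxcl13-side cells (-3.00, SE 0.52), and Mdk, midkine, against low-inflammatory cells (-1.85, SE 0.29). Fgf18 was called higher against low-inflammatory cells, at 78.0, 20.6, 135 and 36.1 against 6.00, 13.6, 0 and 3.30 (3.10, SE 0.44). No gene of the proliferation or immediate early lists was called with all cells and the tumor as a block. Against low-inflammatory cells, though, 1 of 16 tested proliferation genes lay above 0 (6.25%, and 48.7% of all genes), with a list median of -0.78. Against Cxcl13-side cells 5 of 12 did, with a median of -0.19. Without cells that carried mesothelial or pericyte markers, 1 of 12 proliferation genes was called lower against Cxcl13-side cells and 3 of 9 against low-inflammatory cells, and with sums per library 2 of 16 immediate early genes were called lower against Cxcl13-side cells.

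The remaining lists are given by their counts, to be read against the 1.13% of all genes called higher and 1.31% lower against Cxcl13-side cells, and 2.6% and 2.29% against low-inflammatory cells. Against Cxcl13-side cells, 1 of 22 collagen and crosslinking genes was called higher (Loxl2), 2 of 9 IGF axis genes, 4 of 17 surface marker genes (Cd34, Cd9, Cd200 and Cd248) and 2 of 16 interferon response genes (Ifit1 and Ifit3), with none of these lists lower. Neither interferon gene passed the filter on low counts without cells that carried mesothelial or pericyte markers, and the interferon list summed to 889 CPM against 927 in tumor 1 and 3279 against 1320.5 in tumor 2. Proteases and inhibitors had 2 of 24 higher and 3 lower, antigen-presenting genes 1 of 6 higher and 1 lower, and glycolysis and hypoxia genes 1 of 16 lower (Adm). Against low-inflammatory cells, 1 of 23 collagen genes was higher (Adamts2), 2 of 19 interferon genes were higher, and surface markers had 5 of 18 higher and 1 lower. Wnt modulators had 2 of 18 higher and 2 lower, TGF-beta and BMP genes 4 of 22 higher and 2 lower, and IGF axis genes 1 of 12 higher and 2 lower. Glycolysis and hypoxia genes had 1 of 19 higher and 3 lower, complement genes 1 of 14 higher and 3 lower, retinoid and lipid genes 1 of 16 higher and 2 lower, and IL1 to JAK-STAT genes 1 of 26 in each direction.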
